A study of Mus musculus with 18 samples.

Results

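The microRNAs described here are 6 mature arms from hairpins that lie close together in an intron of Clcn5 on mouse chromosome X: mmu-miR-501-3p, mmu-miR-500-3p, mmu-miR-532-5p, mmu-miR-532-3p, mmu-miR-362-3p and mmu-miR-188-5p, in which mmu stands for the mouse and is left out of most names from here on. They are 6 of the 1251 entries of the microRNA table, and they were chosen from measured values, with the levels of these same libraries in view. Their differences between sample types are therefore given as a description, with no p-value, and counts of members called stand only beside the share called among all tested microRNAs. Small RNA was sequenced from bulk skin and tumours of 6 female SKH-1E Hairless littermates, numbered mouse 2, 3, 7, 8, 9 and 10, a strain that lacks a working Hairless gene and is prone to ultraviolet-induced skin tumours. CHR is skin without a lesion, PAP is papilloma, the benign growth, and cuSCC is cutaneous squamous cell carcinoma. Every mouse gave 1 library of each type, so n = 6 per type. All 18 libraries come from skin that had been chronically irradiated with a solar simulator from young adulthood, so none stands for unexposed skin, and all lesions were of low or intermediate grade.

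Several microRNA hairpins can be cut from 1 long primary transcript. Drosha releases each hairpin in the nucleus, Dicer then cuts away its loop, and 1 strand of the remaining duplex, the 5p or the 3p arm, is kept in an Argonaute protein while the other is usually degraded. The kept arm pairs with messenger RNAs mainly through its seed, bases 2 to 8 counted from its 5′ end. The host gene, Clcn5, encodes an endosomal chloride and proton exchanger that is altered in Dent disease of the kidney. Both arms of a hairpin start from the same number of precursor molecules, so their levels can be set against each other within a library.

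The mature sequences below are those of RefSeq (GRCm38.p6), written 5′ to 3′ with the seed in capitals. They are shown because miR-501-3p and miR-500-3p are close to identical, while no other arm of this list has the same seed as another. The table of sequences matched 5 of the 6 members, and miR-532-5p is given by name only.
miR-501-3p: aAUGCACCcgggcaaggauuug
miR-500-3p: aAUGCACCugggcaaggguuca
miR-532-3p: cCUCCCACacccaaggcuugca
miR-362-3p: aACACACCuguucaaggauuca
miR-188-5p: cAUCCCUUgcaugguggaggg
miR-362-5p: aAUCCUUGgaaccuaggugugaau

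The last of these, miR-362-5p, is the other arm of the miR-362 hairpin and was not among the 6. With positions counted from 1 at the 5′ end of miR-501-3p, miR-500-3p differs from it by C9U, A18G, U21C and G22A, so that 18 of 22 bases and the whole seed AUGCACC are shared. How reads that fit both arms were divided between them is not given in the sources used here, and the level of miR-500-3p is uncertain to that extent. The seed of miR-362-3p is also that of miR-329-3p, a microRNA from a different locus. The seed of miR-362-5p is also that of miR-500-5p.

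The 5 hairpins follow each other on the minus strand in the order Mir532, Mir188, Mir362, Mir501 and Mir500 (chrX:7237683-7248497, GRCm38), over 10815 bases. The first, Mir532 (chrX:7248402-7248497), starts 70861 bases downstream of the start of Clcn5 (chrX:7153810-7319358). Mir188 follows Mir532 after 345 bases, Mir362 comes 5942 bases after Mir188, Mir501 lies 630 bases beyond Mir362, and Mir500 (chrX:7237683-7237774) another 3468 bases on. All 5 lie in the same intron (chrX:7213011-7316658), which is annotated in 3 of the 5 Clcn5 transcripts. None overlaps an exon of any Clcn5 transcript. The hairpins that gave the levels described next, Mir532 and Mir501, are thus not direct neighbours. Arms of a further hairpin, Mir660, were also looked for, but none is among the 1251 entries. Mir660 was not mapped, so the 5 need not be the whole cluster.

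**Figure D1:**
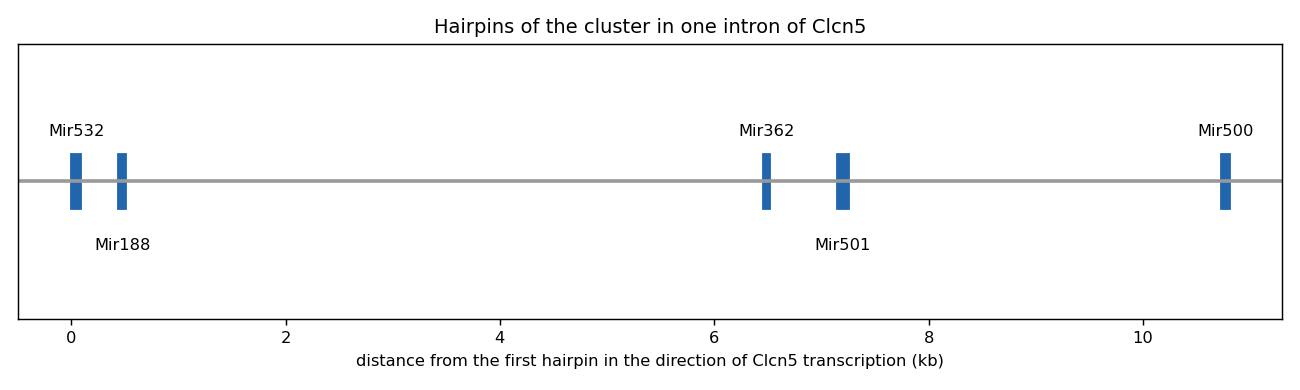
Position of the 5 hairpins (blue boxes, drawn to scale) along their shared Clcn5 intron, as distance in kb from the first base of Mir532 in the direction of Clcn5 transcription. Among these 5, Mir532 and Mir188 form one group, Mir362 and Mir501 another after a gap of 5942 bases, and Mir500 stands alone, 3468 bases further on.

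Levels are log2 values of ppm (reads per 1000000 usable reads), made equal in distribution between the libraries before deposit, and an entry that was not detected in a library stands at 3.32, the log2 of 10 ppm. A microRNA was tested if it was above this value in at least 6 of the 18 libraries, which held for 293 entries and for 4 of the 6 members. The libraries held between 200 and 328 detected entries in CHR, between 163 and 281 in PAP and between 236 and 365 in cuSCC, and the read depth behind each value is unknown. The labelled tissue was checked with 7 microRNAs of keratinocytes, among them miR-203-3p and miR-205-5p. Of these, miR-200a-3p was detected in 15 of the 18 libraries and each of the others in all 18. The log2 of the summed level of the 7 was 17.50 to 18.51 in CHR, against 17.77 to 18.55 in PAP and 17.50 to 18.54 in cuSCC. Of the 7, 3 rose in cuSCC against CHR, 4 rose in PAP against CHR and 1 fell in cuSCC against PAP (limma, adjusted p under 0.05).

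mmu-miR-501-3p was the most abundant arm of the cluster in CHR and stood lower in every cuSCC. In CHR its level ran from 9.96 to 11.18, with a median of 10.56 (mean 10.53 ± 0.53, SD, n = 6). In PAP it ran from 8.91 to 10.96 with a median of 9.83 (mean 9.83 ± 0.81), and in cuSCC from 7.82 to 9.83 with a median of 9.29 (mean 9.03 ± 0.70). All 6 cuSCC lay below the lowest CHR library, while PAP overlapped both. Ordered by level, miR-501-3p held places 64 to 83 of the 1251 entries in the CHR libraries and places 85 to 132 in the cuSCC libraries.

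Between cuSCC and CHR the difference in mmu-miR-501-3p was -1.50 (SE 0.36, n = 6 of each), a 2.83-fold lower level. Within mice the difference ran from -3.14 in mouse 3 to -0.68 in mice 2 and 9, and cuSCC was the lower in 6 of 6 mice. Mice 3 and 10, with -3.14 and -2.49, had the widest gaps, and the difference between group means was -1.17 without mouse 3. PAP stood between the other types on average, with a difference of -0.70 (SE 0.39) from CHR, but was lower than CHR in only 4 of 6 mice. From PAP to cuSCC the difference was -0.80 (SE 0.43), with 5 of 6 mice lower. The full order, CHR above PAP above cuSCC, was met in 3 of 6 mice.

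mmu-miR-532-3p, from the first hairpin of the cluster, showed nearly the same course as miR-501-3p at a lower level. Its CHR libraries ran from 7.76 to 8.84 with a median of 8.65 (mean 8.45 ± 0.44, SD, n = 6). Its PAP libraries ran from 7.08 to 8.25 with a median of 7.52 (mean 7.57 ± 0.42), and its cuSCC libraries from 5.80 to 7.85 with a median of 6.69 (mean 6.72 ± 0.77). Of the 6 cuSCC, 5 lay below every CHR library. The exception was mouse 7, whose cuSCC at 7.85 was just above the lowest CHR library, that of mouse 9 at 7.76.

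The difference in miR-532-3p between cuSCC and CHR was -1.74 (SE 0.37), a 3.33-fold lower level, and cuSCC was the lower in 6 of 6 mice. Mouse 3 had the widest gap, -2.91, and mouse 9 the narrowest, -0.55. PAP differed from CHR by -0.88 (SE 0.28), with 4 of 6 mice lower, and cuSCC from PAP by -0.86 (SE 0.37), with 5 of 6 mice lower. The mice in which PAP was not below CHR, 8 and 9, were the same for miR-532-3p and miR-501-3p. In mouse 8 the PAP level was 0.20 above CHR for miR-532-3p and 0.66 above for miR-501-3p, and in mouse 9 the differences were 0.06 and 0.05. The mouse in which cuSCC was not below PAP was not the same for the 2 arms. For miR-532-3p it was mouse 7, at 0.23, where miR-501-3p was at -0.61. For miR-501-3p it was mouse 2, at 0.38, where miR-532-3p was at -1.02.

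**Figure D2:**
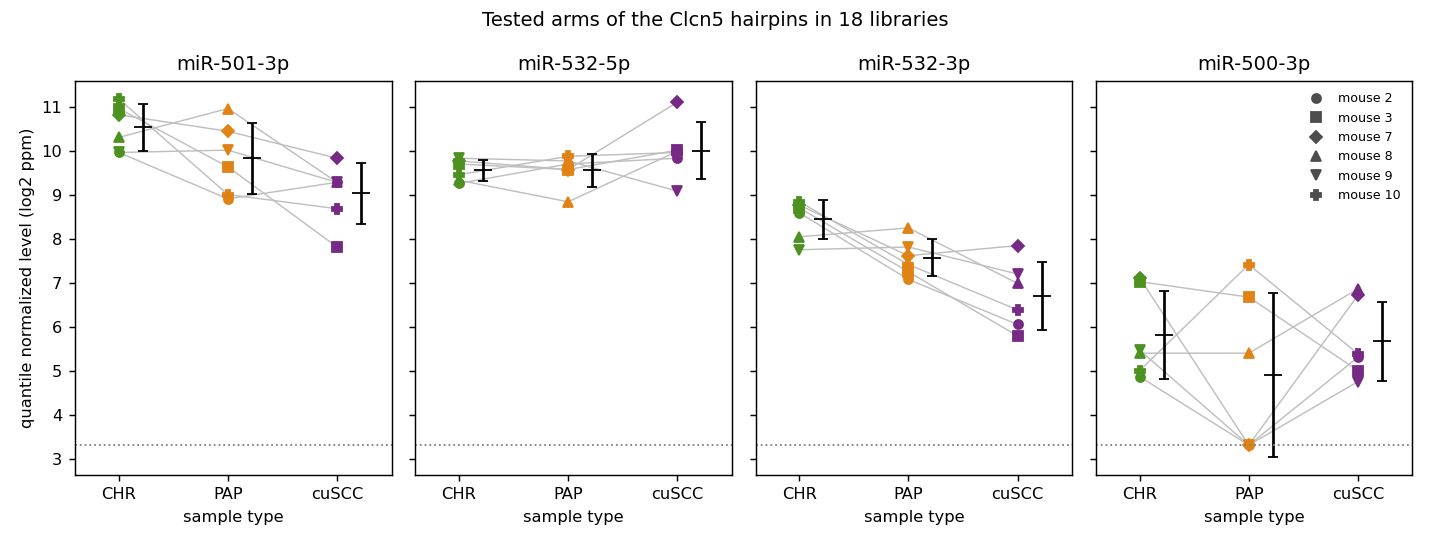
Levels (log2 ppm, quantile normalized) of the 4 tested arms in CHR, PAP and cuSCC. Each point is 1 library, its shape gives the mouse and grey lines join the libraries of a mouse, black bars are the mean ± SD of 6 libraries, and the dotted line is the value given to undetected entries. miR-501-3p goes from a mean of 10.53 in CHR to 9.03 in cuSCC and miR-532-3p from 8.45 to 6.72, while miR-532-5p has medians of 9.58 and 9.98, and 3 PAP libraries of miR-500-3p lie on the dotted line.

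mmu-miR-532-5p, the opposite arm of the same hairpin as miR-532-3p, did not follow it. It ran from 9.26 to 9.83 in CHR (median 9.58, mean 9.56 ± 0.24, SD, n = 6) and from 8.84 to 9.88 in PAP (median 9.64, mean 9.56 ± 0.37). In cuSCC it ran from 9.09 to 11.10 (median 9.98, SD 0.65), with the cuSCC of mouse 7 the highest of all 18 libraries. The cuSCC of 4 mice exceeded every CHR library, 1 lay below all of them, and the types overlapped.

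For miR-532-5p, cuSCC was 0.44 above CHR (SE 0.32) and 0.44 above PAP (SE 0.33), each in 5 of 6 mice. Mouse 9 was the exception in both, at -0.75 against CHR. PAP and CHR had nearly equal means, 9.56 each, with within-mouse differences from -0.49 to 0.44. Each of these differences is below 1.5 times its standard error, which leaves its size uncertain.

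The contrast between the arms of the Mir532 hairpin was measured as miR-532-5p minus miR-532-3p within each library. This quantity would not change if a constant were added to all log2 values of a library. Quantile normalization is not such a shift, so the size of the gap can depend on it. In CHR the 5p arm exceeded the 3p arm by 0.62 to 2.08, with a mean of 1.11 ± 0.53 (SD, n = 6), a 2.15-fold excess. In PAP the excess was 0.59 to 2.62, with a mean of 1.98 ± 0.73, or 3.95-fold. In cuSCC it was 1.88 to 4.22, with a mean of 3.28 ± 0.80, or 9.73-fold.

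The 5p arm was thus above the 3p arm in all 18 libraries, and the gap was widest in cuSCC. From CHR to cuSCC it grew by 2.18 on average and grew in 5 of 6 mice, and 5 of the 6 cuSCC libraries exceeded every CHR library. Mouse 9 had the widest gap in CHR, 2.08, and the narrowest in cuSCC, 1.88. Leaving out 1 mouse at a time gave values between 1.97 and 2.65, and raising all values under 100 ppm to 100 ppm gave 1.90. From CHR to PAP the gap grew by 0.88, in 4 of 6 mice, and from PAP to cuSCC by 1.30, in 5 of 6 mice.

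Because miR-501-3p and miR-532-5p took different courses, the order of the abundant arms changed between the sample types. miR-532-5p was below miR-501-3p in all 6 CHR libraries, where miR-532-5p minus miR-501-3p had a mean of -0.97 ± 0.53 (SD). It was the higher of the pair in 2 of 6 PAP libraries and in 5 of 6 cuSCC libraries. In cuSCC it exceeded miR-501-3p by 0.97 ± 0.81, and the cuSCC of mouse 9 was the only one of the 6 with miR-501-3p on top. The distance from miR-501-3p to miR-532-3p, by contrast, was 2.08 ± 0.36 in CHR, 2.26 ± 0.48 in PAP and 2.32 ± 0.47 in cuSCC.

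**Figure D3:**
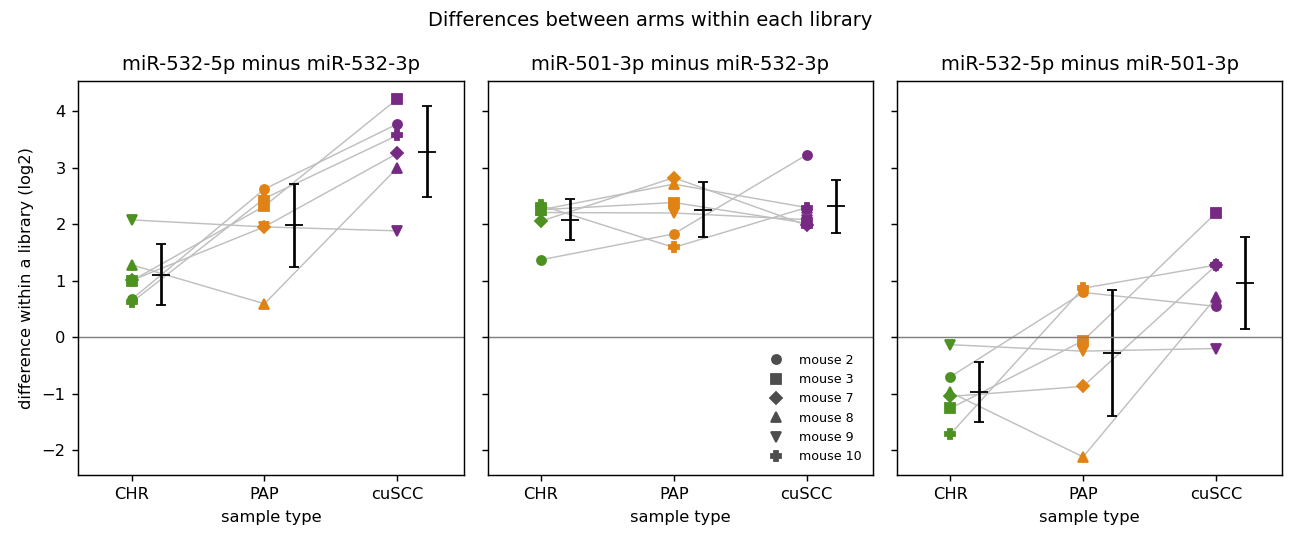
Differences (log2) between arms within each library in CHR, PAP and cuSCC, with 1 point per library, shapes and grey lines for mice, and black bars for the mean ± SD of 6 libraries. miR-532-5p minus miR-532-3p goes from a mean of 1.11 in CHR to 3.28 in cuSCC, miR-501-3p minus miR-532-3p stays between means of 2.08 and 2.32, and miR-532-5p minus miR-501-3p is below 0 in all 6 CHR and above 0 in 5 of 6 cuSCC libraries.

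Across the 18 libraries the levels of miR-501-3p and miR-532-3p went together, with Pearson's r = 0.89 and Spearman's rho = 0.89. After each group's mean was removed, r was 0.77 and rho 0.78, and within groups r was 0.74 in CHR, 0.87 in PAP and 0.80 in cuSCC (n = 6 each). Without the cuSCC of mice 2 and 3, the 2 libraries farthest from the median of miR-532-3p, r was 0.89. For the 2 arms of the Mir532 hairpin the values were otherwise, as miR-532-5p and miR-532-3p had r = -0.27 and rho = -0.48 over all libraries, and r = 0.07 with group means removed. Within groups their r differed in sign, at -0.14 in CHR, -0.72 in PAP and 0.37 in cuSCC. miR-501-3p and miR-500-3p, with the shared seed, had r = 0.09 over all libraries and with group means removed. Their r within groups was 0.46 in CHR, -0.22 in PAP and 0.55 in cuSCC. In PAP, 3 of the 6 values of miR-500-3p are those of undetected libraries. These values describe libraries that share 6 mice and a common normalization, so the points are not independent.

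**Figure D4:**
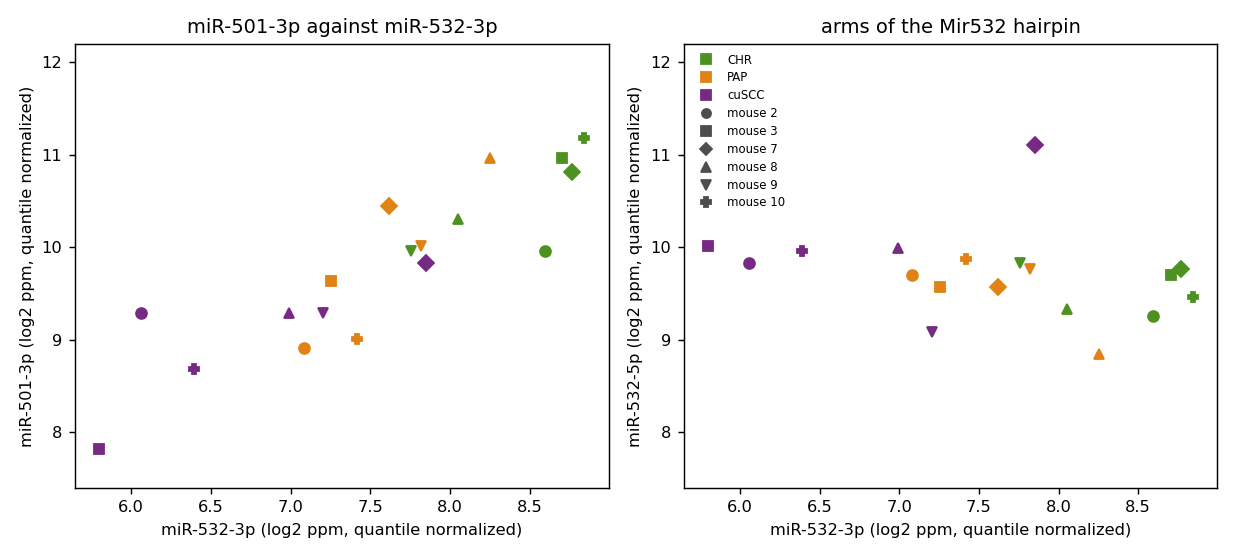
Levels (log2 ppm, quantile normalized) of miR-501-3p (left) and miR-532-5p (right) against miR-532-3p in 18 libraries, with colour for the sample type and shape for the mouse. On the left the points rise together (r = 0.89), and on the right r is -0.27 over all libraries.

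mmu-miR-500-3p was far less abundant than miR-501-3p and scattered widely. Its level ran from 4.88 to 7.12 in CHR (median 5.44, mean 5.82 ± 0.998, SD, n = 6) and from 4.76 to 6.87 in cuSCC (median 5.36, mean 5.68 ± 0.89). In PAP it was not detected in mice 2, 7 and 9 and stood at 6.68, 5.41 and 7.42 in mice 3, 8 and 10. The ranges of all 3 types overlapped, and the highest value of the 18 was a PAP library.

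The difference in miR-500-3p was -0.14 (SE 0.50) between cuSCC and CHR, with 3 of 6 mice lower. It was -0.91 (SE 0.78) between PAP and CHR and 0.77 (SE 0.77) between cuSCC and PAP. Both values that involve PAP rest on the 3 undetected libraries and turned sign when each library's lowest detected value stood in for undetected entries, to 0.26 and -0.40. In the PAP libraries of mice 2, 7 and 9 the lowest detected value of any entry was 4.77, 6.72 and 5.48. Levels of miR-500-3p such as those of most cuSCC libraries were thus not detectable in the PAP of mice 7 and 9. miR-500-3p supplied a median of 3.76% of the summed level of the 2 arms with the seed AUGCACC in CHR (range 1.37 to 7.13%) and 9.83% in cuSCC (4.17 to 15.7%). In PAP the share ran from 0.712 to 24.9%, and as 3 of its 6 values are those of undetected libraries set to 10 ppm, no median is given. The log2 of this sum was 10.59 ± 0.53 in CHR, 9.94 ± 0.73 in PAP and 9.18 ± 0.68 in cuSCC, close to the course of miR-501-3p alone.

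mmu-miR-362-3p and mmu-miR-188-5p stood at the lowest value of the table in all 18 libraries. They are listed but not detected, and no difference can be given for them. The same held for miR-188-3p and miR-500-5p, the other arms of the Mir188 and Mir500 hairpins, so neither arm of Mir188 was detected. miR-501-5p was above the lowest value in 2 libraries, the CHR of mouse 3 at 4.48 and the cuSCC of mouse 2 at 3.34. miR-329-3p, which shares its seed with miR-362-3p, was detected in 4 of 18 libraries, all cuSCC, at 3.75 to 4.25.

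The arm of the cluster outside the 6 members that could be tested was miR-362-5p. It was detected in 1 CHR library (mouse 10, 4.94), in 1 PAP library (mouse 8, 5.68) and in 5 of 6 cuSCC libraries, and over all 6 cuSCC it ran from 3.32 to 6.06 with a median of 3.95. All detected levels were thus low, and the highest was the cuSCC of mouse 8. It met the limit of 6 libraries only through cuSCC, the type with its highest mean, so its p-values depend on that choice and are no support for a difference. Tested with limma over 293 microRNAs, its difference was 0.64 between cuSCC and CHR (SE 0.45, adjusted p = 0.262), with 5 of 6 mice higher. It was 0.12 between PAP and CHR (SE 0.46, adjusted p = 0.864) and 0.52 between cuSCC and PAP (SE 0.53, adjusted p = 0.534). None of these passed the threshold of 0.05. Without mouse 10, the cuSCC value became 1.10 (adjusted p = 0.0417). With each library's lowest detected value in place of undetected entries, PAP was higher than CHR by 1.44 (adjusted p = 0.022) and the cuSCC and PAP difference turned to -1.38 (adjusted p = 0.0372), so no direction can be given for it.

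**Figure D5:**
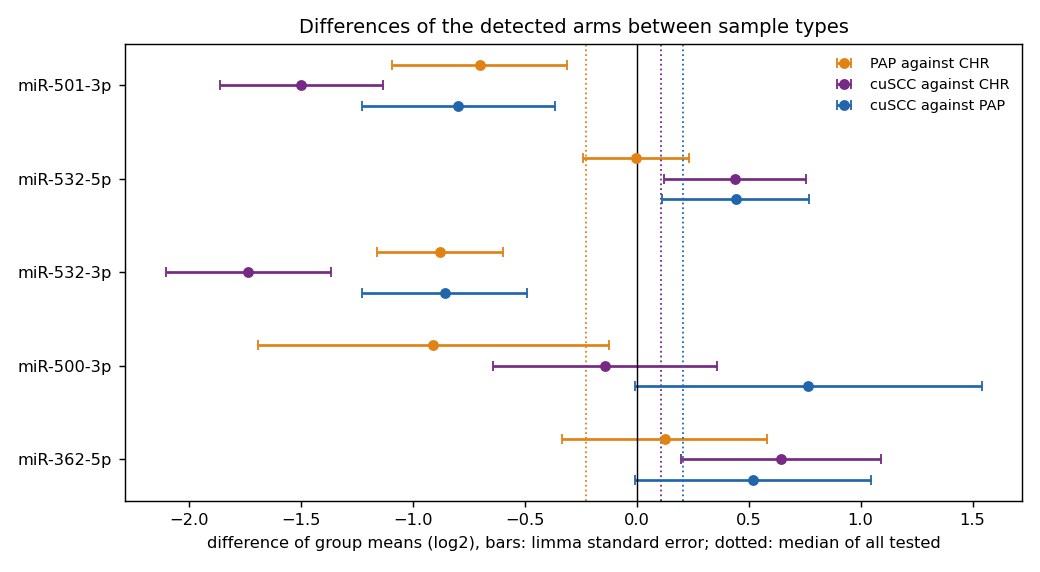
Differences of group means (log2) for the 4 tested members and miR-362-5p in the 3 comparisons of sample types, with bars for the limma standard error (n = 6 of each type) and dotted lines for the median of all 293 tested microRNAs in the same colour. miR-501-3p and miR-532-3p lie left of 0 in all 3, at -1.50 and -1.74 between cuSCC and CHR, whereas miR-532-5p is at 0.44 there.

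Set against all 293 tested microRNAs, 65 were called lower in cuSCC than in CHR at an adjusted p under 0.05, which is 22.2% of those tested, and 2 of the 4 tested members, miR-501-3p and miR-532-3p, were among them. In PAP against CHR, 54 or 18.4% were called lower, among them 1 member, miR-532-3p, and the count of members was 0 with mouse as a replicate block and 0 when mouse 2, 3, 7 or 10 was left out. In cuSCC against PAP, 34 or 11.6% were called in either direction by limma and 0 members were, while 83 microRNAs, 28.3% of those tested, had an unadjusted p under 0.05, among them 1 member, miR-532-3p. The exact permutation test called 0 of the 293 in cuSCC against PAP. Libraries of cuSCC lay below every CHR library for 31 microRNAs, 10.6% of those tested, among them miR-501-3p. The members were picked with these differences in view, so nothing is read from these counts. The median difference between cuSCC and CHR was -0.82 over the 4 members and 0.11 over all tested. Between PAP and CHR the medians were -0.79 and -0.23, and between cuSCC and PAP -0.18 and 0.21. The medians that involve PAP depended on the undetected entries. With each library's lowest detected value in their place, they were -0.35 and 0.44 between PAP and CHR, and -0.60 and -0.48 between cuSCC and PAP.

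Other microRNAs of chromosome X did not share one course. Of 15 tested with a hairpin there and outside the cluster, 5 fell and 3 rose in cuSCC against CHR, 3 fell and 1 rose in PAP against CHR, and 1 fell and 1 rose in cuSCC against PAP (limma, adjusted p under 0.05). Over all 293 tested, 65 fell and 59 rose in cuSCC against CHR. In PAP against CHR, 54 of the 293 fell and 41 rose, and in cuSCC against PAP 7 fell and 27 rose. With so few on chromosome X, nothing more is read from their counts. The median differences of the 15 were -0.12, -0.02 and 0.11. Over all tested microRNAs, 27 had a lower difference between cuSCC and CHR than miR-532-3p and 33 a lower one than miR-501-3p.

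The 5 microRNAs outside the cluster whose levels over the 18 libraries were most like the mean course of the 4 tested members were miR-339-5p (r = 0.80), miR-664-3p (0.68), miR-326-3p (0.67), miR-652-3p (0.67) and miR-328-3p (0.62). That mean is unscaled and joins arms that differed in course. With miR-501-3p and miR-532-3p in turn, r was 0.56 and 0.62 for miR-339-5p, 0.80 and 0.76 for miR-664-3p, and 0.76 and 0.68 for miR-326-3p. It was 0.43 and 0.64 for miR-652-3p, and 0.80 and 0.86 for miR-328-3p. The order by the mean is thus not the order of likeness to these 2 arms. All 5 had their highest group mean in CHR, as did the mean they were picked to resemble, so nothing is read from this. miR-326-3p was detected in 14 of the 18 libraries, miR-339-5p in 16, miR-652-3p in 17, and miR-664-3p and miR-328-3p in all 18. miR-664-3p, with means of 8.13 ± 0.54 in CHR, 7.14 ± 0.63 in PAP and 5.61 ± 1.19 in cuSCC, and miR-328-3p, with 9.97 ± 0.47, 8.79 ± 0.85 and 7.49 ± 0.30, had means that went down from CHR to PAP to cuSCC, as did those of miR-326-3p and miR-652-3p. miR-652-3p is the one of the 5 matched to chromosome X, with 7.38 ± 0.67, 6.01 ± 1.43 and 5.32 ± 0.80. Least alike were miR-31-5p (r = -0.70), miR-27b-5p (-0.66) and miR-92a-1-5p (-0.64). miR-31-5p, an arm long described as raised in squamous carcinomas, had means of 11.95 ± 0.65 in CHR, 15.15 ± 0.73 in PAP and 14.66 ± 0.82 in cuSCC.

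Markers of other cell types also differed between CHR and the lesions. Of 4 skeletal muscle microRNAs, 3 were tested, all 3 fell in PAP against CHR and 1 fell in cuSCC against CHR, and the log2 of their summed level was 15.44 to 15.98 in CHR, against 5.32 to 12.45 in PAP and 6.04 to 14.24 in cuSCC. The PAP sum of 5.32 is the value that 4 undetected entries give together, not a measured level. miR-1a-3p, a defining muscle microRNA, was detected in 1 of 18 libraries. Of 5 fibroblast and smooth muscle microRNAs, 3 fell in PAP and 1 in cuSCC against CHR, with sums of 14.30 to 15.06 in CHR, against 11.02 to 14.04 in PAP and 12.53 to 15.51 in cuSCC. The muscle sum did not overlap between CHR and either lesion. In cuSCC against PAP, 3 muscle and 2 fibroblast and smooth muscle microRNAs rose by limma. The exact permutation test called 0 of the 293 in that comparison, so every marker call in cuSCC against PAP rests on limma alone.

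Both endothelial microRNAs rose in cuSCC, against CHR and against PAP, with sums of 7.84 to 9.35 in CHR, of 7.61 to 9.004 in PAP and of 9.26 to 11.17 in cuSCC. Of 5 leukocyte microRNAs, 3 were tested, with sums of 12.14 to 13.11 in CHR, against 9.03 to 11.19 in PAP and 10.80 to 12.27 in cuSCC, and miR-155-5p stood at the lowest value everywhere. Among those 3, 1 fell and 1 rose in cuSCC against CHR, 1 fell in PAP against CHR and 1 rose in cuSCC against PAP. Of 4 erythroid microRNAs, 2 were tested, with sums of 16.69 to 17.84 in CHR, against 16.70 to 18.24 in PAP and 14.87 to 17.87 in cuSCC, and miR-144-3p was not detected in any library. Of these 2, 1 fell and 1 rose in cuSCC against CHR, 1 rose in PAP against CHR and 1 fell in cuSCC against PAP. The part of any of these cell types in the levels of the Clcn5 arms was not tested. In bulk samples, fewer cells of a type and less RNA per cell cannot be told apart.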

How the data were processed

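The deposited log2 values were used for the 18 mouse libraries. To make them, the authors removed adapters and very short reads, assigned reads to miRBase entries by BLAST and scaled each microRNA to ppm of usable reads. The log2 scale, the quantile normalization and the lowest value of 3.32 were read from the values themselves. Unlogged, a library sums to 2.35 to 2.36 times the whole that ppm implies, so a level is no literal share. The submitters' processing notes name the build mm10. Read totals were not used, so depth and counting error are unknown.

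Differences were fitted with limma 3.58.1 in R 4.3.3 on the 293 microRNAs detected in at least 6 of 18 libraries, 6 libraries against 6, two-sided, without a block for mouse, with Benjamini-Hochberg adjustment over all 293. On simulated data for cuSCC against CHR, with 293 microRNAs of which 100 were changed by 2 on the log2 scale, the test recovered 90 and made 5 false calls. Library numbers are those of the mice, so libraries are paired by animal. Deviations of the libraries of a mouse from their group means correlated at -0.0676 on average between cuSCC and CHR, 0.025 between PAP and CHR and 0.0582 between cuSCC and PAP.

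The members, the marker lists and the microRNAs named were chosen with earlier results of these data known. Named are the 6 members, the other arms of their hairpins listed in the table, microRNAs that share a seed with a member, and the 5 most and 3 least alike by Pearson's r over 18 libraries with the members' mean course. RefSeq entries matched 1001 of 1251 names and 241 of the 293 tested. Alternatives were a filter of 9 libraries or none, a fit on all 3 types, a block for mouse, centred libraries, each library's lowest detected value for undetected entries, a lowest value of 100 ppm, an exact permutation test and leaving out each mouse. Python 3.11.15, pandas 2.3.3 and matplotlib 3.10.9 were used for tables and plots.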

Additional observations from a re-analysis of the deposited data

Results flagged for a closer look

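In 4 of 15 groups of 6 libraries, 1 library of a tested arm stood apart from the other 5 by more than Dixon's limit. The chance rate of about 1 in 20 holds for values that vary freely. It does not hold for groups with undetected libraries, so nothing is read from the count of 4 in 15. The PAP of mouse 8 was the lowest in miR-532-5p, at 8.84, with a gap of 0.709 of the group's range. For miR-362-5p, the CHR of mouse 10 at 4.94 and the PAP of mouse 8 at 5.68 were the only detected libraries of their groups. The other 5 libraries of each group share the value given to undetected entries. A single detected library passes the limit there at any level. The cuSCC of mouse 8 was the highest in miR-362-5p, at 6.06, with a gap of 0.637 of the range. That group also held an undetected library, the cuSCC of mouse 10.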

How the results depend on the processing

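The differences of miR-501-3p and miR-532-3p between cuSCC and CHR kept their direction under every alternative run, at -1.66 to -1.17 and -1.97 to -1.50 when 1 mouse was left out. With mouse as a replicate block, 110 microRNAs were called in cuSCC against CHR, 77 in PAP against CHR and 24 in cuSCC against PAP, in place of 124, 95 and 34, and the members called in PAP against CHR went from 1 to 0, as in the fit on all 3 types (0). The block changed no other call on the members or on miR-362-5p. With a lowest value of 100 ppm, 80, 57 and 2 microRNAs were called. In cuSCC against PAP there were 2 calls without a filter, 80 with each library's lowest detected value for undetected entries, and 0 by the exact permutation test (75 at an unadjusted p under 0.05). Leaving out 1 mouse gave 77 to 129 calls in cuSCC against CHR (lowest without mouse 3), 55 to 79 in PAP against CHR (55 without mouse 3 and 59 without mouse 7) and 1 to 59 in cuSCC against PAP, with 59 without mouse 10, 9 without mouse 2 or 9 and 1 without mouse 3, 7 or 8. It gave 0 to 1 members called in PAP against CHR and 0 to 1 other arms called in cuSCC against CHR, the 1 being miR-362-5p without mouse 10. With undetected entries at the lowest detected value, the other arms called were 1 in PAP against CHR and 1 in cuSCC against PAP, where miR-362-5p turned to -1.38, and the median of all tested in PAP against CHR moved from -0.23 to 0.44, with 37% of calls lower in place of 56.8%. In cuSCC against PAP that median moved from 0.21 to -0.48, with 77.5% of calls lower in place of 20.6%.

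Small differences changed sign. miR-500-3p turned to 0.26 in PAP against CHR and to -0.40 in cuSCC against PAP with undetected entries at the lowest detected value, to -0.0853 in cuSCC against PAP with a lowest value of 100 ppm, and ran from -0.46 to 0.23 in cuSCC against CHR when 1 mouse was left out (above 0 without mouse 3). In PAP against CHR, miR-532-5p was 0.0639 with centred libraries and -0.0913 to 0.0943 with 1 mouse left out, and miR-362-5p was -0.32 to 0.47, below 0 without mouse 8. With a filter of 9 libraries, miR-362-5p gave no value. The cause was not tested for any of these changes. Low arms are limited by the lowest detected value of a library, which reached 6.83 in PAP.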
